A study of Mus musculus with 4 samples.

Results

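The proteasome genes of a mouse fibroblast line were followed through the first 32 h after a critical oxidative stress. The genes were chosen by name: every probe, control spots apart, whose gene name was *Psma*, *Psmb*, *Psmc*, *Psmd*, *Psme* or *Psmg* followed by a digit. This gave 48 genes with 61 probes, of 30174 gene names on the array, and each gene was represented by its brightest probe. The cells were NIH-3T3:Per2-Luc fibroblasts, which carry a luciferase reporter driven by the *Per2* promoter in every group; whether the line is a single clone is not given in the sources used here. In the treated groups 5 mM H2O2 was applied for 10 min (the cOS-pulse), and RNA was taken 4 h, 20 h and 32 h later; the control (0 mM H2O2, labelled 4 h) received only a change to fresh medium. Each of these 4 conditions was measured on 1 one-color array and all 4 arrays shared 1 slide, so there are no replicates, no test was possible and no p-value is given. All 3 times are set against the same control array, so any error of that array enters each of them. No untreated array was labelled 20 h or 32 h. At these times an effect of the pulse therefore cannot be told apart from one of longer culture after the change of medium.

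The 26S proteasome is the machine that degrades most ubiquitin-tagged proteins of the cell. Its barrel, the 20S core, has outer rings of alpha subunits (*Psma* genes) that gate the entrance and inner rings of beta subunits (*Psmb* genes) that hold the proteolytic sites. The 19S cap, made of ATPases (*Psmc* genes) and non-ATPase base and lid subunits (*Psmd* genes), binds ubiquitin chains, removes them and unfolds the substrate. In immune tissue and under interferon the catalytic beta subunits *Psmb5*, *Psmb6* and *Psmb7* can be replaced by *Psmb8*, *Psmb9* and *Psmb10*, which form the immunoproteasome. Other activators (*Psme* genes) can sit on the barrel in place of the cap, and dedicated chaperones (*Psmg1* to *Psmg4* for the core, *Psmd5*, *Psmd9* and *Psmd10* for the cap base) assist assembly and leave the finished particle. Genes of core and cap are known to be induced together in mammalian cells by the transcription factor Nrf1 (gene *Nfe2l1*), which acts through antioxidant response elements, and some also by Nrf2 (*Nfe2l2*).

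Because the members share function and many of them were higher together, their promoters are shown first. RefSeq windows (GRCm38.p6) reaching from 250 bases before to 50 bases after each gene start were found for 40 of the 48 genes. The core letters of the antioxidant response element, TGACNNNGC on either strand, were present in the windows of 6 of 40 members (15%) and of 14% of all 27025 genes with a window. The 6 genes were *Psmb5*, *Psmb6*, *Psmc6*, *Psmd9*, *Psmd12* and *Psme4*. The share among proteasome genes was thus close to that of all genes, and these letters in this window did not single out the members. The 250 bases before the start are given, 5′ to 3′ on the strand of the gene, for 2 catalytic core subunits and 1 lid subunit that hold the letters (in capitals) and for the lid and core subunits *Psmd11* and *Psma5*, which were among the highest at 4 h and hold none of the motifs searched in the bases shown. Their positions are chr11:70525107-70525356 (plus strand) for *Psmb6*, chr14:54617996-54618245 (minus strand) for *Psmb5*, chr11:107479278-107479527 (plus strand) for *Psmd12*, chr11:80428365-80428614 (plus strand) for *Psmd11* and chr3:108256676-108256925 (plus strand) for *Psma5*.
Psmb6: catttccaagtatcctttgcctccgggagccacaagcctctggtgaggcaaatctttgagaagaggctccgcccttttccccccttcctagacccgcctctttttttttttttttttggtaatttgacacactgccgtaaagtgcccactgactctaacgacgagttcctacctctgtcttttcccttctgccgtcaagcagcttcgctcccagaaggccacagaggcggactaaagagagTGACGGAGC
Psmb5: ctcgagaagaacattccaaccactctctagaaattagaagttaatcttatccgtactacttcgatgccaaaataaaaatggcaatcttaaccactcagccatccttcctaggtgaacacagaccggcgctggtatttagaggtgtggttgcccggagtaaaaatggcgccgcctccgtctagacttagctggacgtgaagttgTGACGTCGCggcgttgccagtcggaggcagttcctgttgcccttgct
Psmd12: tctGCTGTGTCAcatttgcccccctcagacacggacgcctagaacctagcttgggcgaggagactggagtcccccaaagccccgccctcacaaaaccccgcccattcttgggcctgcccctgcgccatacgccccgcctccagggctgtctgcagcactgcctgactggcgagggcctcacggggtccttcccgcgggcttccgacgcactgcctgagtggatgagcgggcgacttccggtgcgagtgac
Psmd11: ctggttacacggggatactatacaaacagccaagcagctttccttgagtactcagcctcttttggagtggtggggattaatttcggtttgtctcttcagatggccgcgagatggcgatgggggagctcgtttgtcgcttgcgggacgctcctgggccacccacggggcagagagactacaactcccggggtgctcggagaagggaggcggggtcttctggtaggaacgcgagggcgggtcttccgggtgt
Psma5: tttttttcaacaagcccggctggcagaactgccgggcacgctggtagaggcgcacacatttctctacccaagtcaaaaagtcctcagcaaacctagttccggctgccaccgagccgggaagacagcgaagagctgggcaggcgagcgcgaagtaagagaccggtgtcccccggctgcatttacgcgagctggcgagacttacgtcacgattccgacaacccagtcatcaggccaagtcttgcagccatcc

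In *Psmb6* the marked letters end at the base just before the start, and in *Psmd12* they lie on the opposite strand. Among the holders, the median log2 ratio at 4 h was 0.32 over 6 genes, and among the members with a window but without the letters it was 0.47 over 32 genes. The CCAAT box (CCAAT, either strand) was found in 15 of 40 members (37.5%) and 41.1% of all genes. Its holders, among them *Psmc2*, had a median of 0.51 at 4 h over 14 genes, and the others 0.32 over 24. The gamma-activated site (TTCNNNGAA) was found in 3 members (7.5%) and 9.55% of all genes, with medians of 0.16 over 2 holders and 0.47 over 36 others. The interferon response element was found in 5 members (12.5%) and 3.99% of all genes, with medians of 0.18 over 5 holders and 0.47 over 33 others. No member window held the heat shock element of 3 inverted pentamers, which 0.662% of all genes hold. A match is a stretch of letters and not a measured binding site, and the absence of one concerns only these 300 bases.

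The arrays measured 45 of the 48 genes well above background in all 4 conditions. The other 3 were well above background in none: *Psma8*, an alpha subunit of the testis, *Psmb11*, a beta subunit of the thymus cortex, and *Psmb8*, the immunoproteasome counterpart of *Psmb5*. One further name match, *Psmc3ip*, encodes a partner in meiotic recombination and no subunit. It was kept in the counts because the rule takes it. Values below are scaled log2 signals, the log2 intensity minus the 75th percentile of the array, so 0 is the brightness of that percentile. A ratio is a difference of these signals between arrays, and the ± beside it is the error the scanner software gives for the spots, which covers the spot and not the cells. For a bright probe it is 0.20, almost the same for every gene. Counts within or beyond it are therefore counts past a nearly fixed cut, not past a spread measured for each gene. Of the markers fixed for the cell type, 8 of 8 fibroblast genes, among them *Col1a1* and *Vim*, were well above background on every array, with a summed linear signal between 567 and 651 times the 75th percentile. *Ptprc*, *Lyz2* and *Emr1* of macrophages, *Tie1* and *Tek* of endothelium, and *Epcam*, *Cdh1*, *Krt18* and *Cldn4* of epithelium were well above background on no array. *Csf1r* and *Cd14* of macrophages, *Pecam1* and *Kdr* of endothelium, and *Krt8* of epithelium were so on every array. The summed signal was 2.83 to 4.56 for the macrophage list, 3.23 to 4.30 for the endothelial and 0.586 to 1.27 for the epithelial list. At 4 h the fibroblast markers had a median log2 ratio of -0.44, with 7 of 8 below 0. The detected markers of other cells lay above 0, from *Cd14* (0.14, within its spot error), *Csf1r* (0.28) and *Kdr* (0.36) to *Pecam1* (0.71), *Krt8* (1.17) and *Cdh5* (1.87). Their part in the results on the proteasome was not tested.

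At 4 h after cOS-pulse the constitutive proteasome was higher as a set. All 14 subunits of the 20S core and all 17 subunits of the 19S cap lay above the control, though 23 of the 31 did when the arrays were scaled by the spike-in probes. Their median log2 ratio was 0.58 (1.49-fold), against 0.17 over 15805 genes measured on both arrays. In the same scaling 63.7% of all genes lay above 0. Of the 31, 28 lay above 0 by more than their spot error, beside 46.9% of all genes, and 15 were at least 1.5-fold higher. The genes that surround the particle behaved otherwise: the median was -0.06 over 7 assembly chaperones, 0.12 over 4 activators and -0.58 over the 2 immunoproteasome subunits that could be measured. Over all 48 names, 16 were at least 1.5-fold higher, beside 24.4% of all genes, and 3 at least 1.5-fold lower, beside 16.3%. Among the 8356 genes brighter than the 75th percentile, where most proteasome genes lie, these background shares were 18.6% and 14.3%. At 2-fold, 3 members were higher (background 11.1%) and 2 were lower (background 8.27%). The share of measured members at least 1.5-fold higher was 35.6%, above both background shares in this scaling.

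How far above 0 the set lay depended on the scaling between the arrays. The median of all genes at 4 h was 0.17 when arrays were scaled by the 75th percentile and as low as -0.23 when they were scaled by the spike-in probes, a shift of -0.40, with quantile, median, detected-probe and no scaling in between. The members stood 0.30 above the median of all genes under every scaling by 1 constant per array and 0.15 above it after quantile normalization. Of the 31 core and cap genes, 30 lay above the median of all genes under each scaling by 1 constant, which cannot change this count. After quantile normalization 27 did. The number above 0 fell from 31 to 23 with the spike-in probes, where *Psma4*, *Psmb1*, *Psmb5*, *Psmb6*, *Psmc3*, *Psmc6*, *Psmd2* and *Psmd13* went below 0. The number at least 1.5-fold higher fell from 16 to 3 with the spike-in probes, while the share of all genes past that fold fell to 11.7%, so in that scaling the members' share was no longer above the background. The median of the activators turned from 0.12 to -0.29 with the spike-in probes, below 0 as all genes were. The plot of group medians by scaling shows the order cap, core, all genes, assembly chaperones, immunoproteasome. A scaling by 1 constant per array cannot change this order. Quantile normalization could, and the order was the same there.

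**Figure D1:**
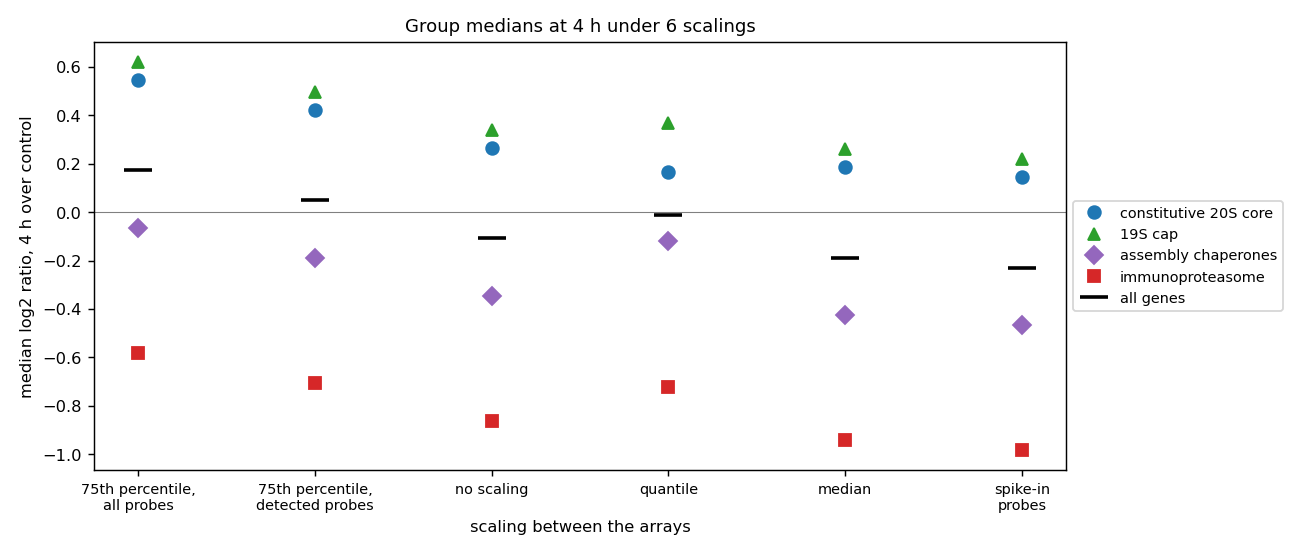
Median log2 ratio at 4 h over control (vertical axis) for 4 groups of proteasome genes and for all genes (black bars) under 6 scalings between the arrays (horizontal axis). Every symbol moves down from the 75th percentile (cap 0.62, core 0.55, all genes 0.17) to the spike-in probes (cap 0.22, core 0.14, all genes -0.23). Cap and core stay above all genes throughout, which only quantile normalization could have changed.

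In the outer rings of the core, 7 of 7 alpha subunits were higher at 4 h by more than the spot error, with a median of 0.66, and all but *Psma4* lay above 0 in each scaling. The highest was *Psma5*, the alpha5 subunit (mm9 chromosome 3, 108082777 to 108082836). Its signal was 4.00 in the control, 5.04 at 4 h, 4.21 at 20 h and 4.20 at 32 h, a ratio of 1.04 ± 0.20 at 4 h (2.05-fold). The 4 h array was thus the highest of the 4. *Psma1* was next with 4.17 in the control, 4.98 at 4 h, 4.27 at 20 h and 4.43 at 32 h. At 32 h it was still 0.26 above the control, the highest of the core and cap genes at that time. The lowest was *Psma4* with 0.21 ± 0.20, and its second probe gave 0.19. Its direction turned to -0.15 with median scaling, -0.01 with quantile normalization, -0.07 without scaling and -0.19 with the spike-in probes.

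In the inner rings, 7 of 7 constitutive beta subunits lay above the control at 4 h with a median of 0.48, and 6 of them by more than the spot error, but *Psmb1*, *Psmb5* and *Psmb6* were below 0 with the spike-in probes. *Psmb2*, a beta subunit without proteolytic activity, was highest with 1.11 in the control, 1.96 at 4 h, 1.14 at 20 h and 1.07 at 32 h (0.85 ± 0.20, 1.80-fold). The lowest was the catalytic subunit *Psmb5* with 0.16 ± 0.20, which is within the spot error. *Psmb1* (0.33) and *Psmb6* (0.36) exceeded their spot error and went to -0.07 and -0.04 with the spike-in probes.

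The catalytic subunits and their immunoproteasome counterparts parted at the beta2 position. *Psmb7*, the constitutive trypsin-like subunit (mm9 chromosome 2, 38468966 to 38489385), had a signal of 2.05 in the control, 2.74 at 4 h, 1.98 at 20 h and 2.02 at 32 h. *Psmb10*, which replaces it in the immunoproteasome (mm9 chromosome 8, 108459677 to 108459736), had 2.86, 1.72, 2.86 and 3.06 in the same order. The first was 1.62-fold higher at 4 h (0.70 ± 0.20) and the second 2.20-fold lower (-1.14 ± 0.20), and both were within the spot error of the control at 20 h. Both are measured in bulk RNA, in which fewer cells carrying a transcript and less of it per cell cannot be told apart. Only 6.14% of the genes measured at 4 h had a lower ratio than *Psmb10*, and its direction was the same under every scaling. The immunoproteasome minus core median was -1.13, which a scaling by 1 constant per array cannot change. Of the settings that could change it, quantile normalization gave -0.89, normexp correction -1.10 and leaving out the detection filter -0.57.

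At the beta1 position *Psmb6*, the caspase-like subunit, had 5.11 in the control, 5.47 at 4 h, 5.14 at 20 h and 5.16 at 32 h. *Psmb9*, its counterpart, was dim, with -2.53, -2.55, -2.17 and -1.99. In these scaled signals the constitutive gene was highest on the 4 h array. At 4 h it was below the control with the spike-in probes (-0.04) and with quantile normalization (-0.01), so its rank among the arrays depended on the scaling. *Psmb9* was level with the control at 4 h in the same scaled signals (-0.02 ± 0.23). It had the highest ratio of all members at 20 h (0.36 ± 0.23) and at 32 h (0.54 ± 0.23). A second *Psmb9* probe was not well above background and gave no ratio. At the beta5 position *Psmb5*, the chymotrypsin-like subunit, had 5.72, 5.88, 5.85 and 5.85, which spans less than its spot error, and *Psmb8* was not well above background. The immunoproteasome group therefore rests on *Psmb9* and *Psmb10*, which differed from each other at 4 h by more than their spot errors.

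**Figure D2:**
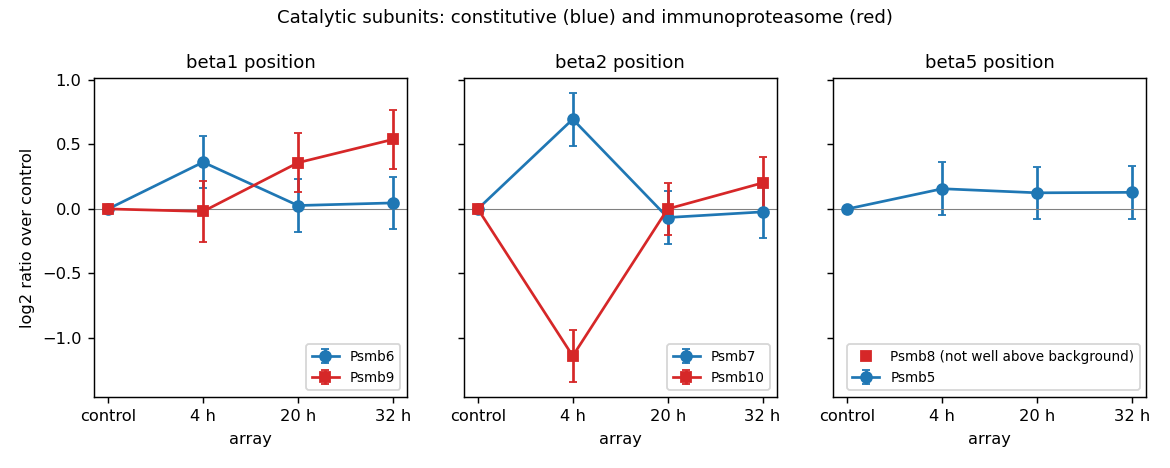
Log2 ratio over the control array (vertical axis) on the 4 arrays for the constitutive catalytic subunits (blue circles) and their immunoproteasome counterparts (red squares); bars are the spot error, and there is 1 array per point. At the beta2 position *Psmb7* stands at 0.70 and *Psmb10* at -1.14 at 4 h, and both return to near 0 at 20 h; *Psmb8* has no points because it was not well above background.

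In the ring of ATPases that unfolds substrates, 6 of 6 genes lay above the control at 4 h with a median of 0.49, and 5 of them by more than the spot error, but *Psmc3* and *Psmc6* were below 0 with the spike-in probes. *Psmc2* (mm9 chromosome 5, 21309536 to 21309595) was far above the others: its signal was 4.86 in the control, 6.01 at 4 h, 5.09 at 20 h and 5.02 at 32 h, or 1.14 ± 0.20 at 4 h (2.21-fold). Its second probe gave 0.96. At 20 h *Psmc2* was still 0.23 ± 0.20 above the control, but its second probe gave -0.00. *Psmc1* was the one ATPase that exceeded its spot error at both later times, with 4.88 in the control, 5.38 at 4 h, 5.13 at 20 h and 5.11 at 32 h. It was the highest core or cap gene at 20 h (0.25), and its 2 probes differed by 0.02 there. *Psmc3* (0.20 ± 0.20) was the lowest at 4 h, and *Psmc6* (0.28) was next, with -0.12 in the spike-in scaling.

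Of the non-ATPase base subunits, *Psmd1*, a scaffold of the base, was at 0.85 ± 0.20 at 4 h. *Psmd4*, a receptor for ubiquitin chains, was at 0.44 and *Psmd2*, the other large scaffold, at 0.38, which became -0.02 with the spike-in probes. The median of the 3 genes was 0.44. Later they lay between -0.02 and 0.22 at 20 h, where *Psmd2* exceeded its spot error, and between 0.02 and 0.13 at 32 h, all within it.

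The lid, which removes ubiquitin chains from the substrate, was the group with the highest median at 4 h, 0.81 over 8 genes. Of these, 6 were at least 1.5-fold higher, beside 24.4% of all genes and 18.6% of the bright genes. With the spike-in probes only 3 of all members passed that fold. All lid genes but *Psmd13* lay above 0 in each scaling. *Psmd11* (mm9 chromosome 11, 80283406 to 80283920), a scaffold subunit whose promoter is printed above, was the highest of all members. Its signal was 2.26 in the control, 3.52 at 4 h, 2.48 at 20 h and 2.34 at 32 h, a ratio of 1.26 ± 0.20 at 4 h (2.39-fold), and 95.3% of the genes measured at 4 h had a lower ratio. *Psmd3* followed with 5.07 in the control, 6.01 at 4 h, 5.14 at 20 h and 5.17 at 32 h (1.92-fold at 4 h), and *Psmd12* with 4.41, 5.32, 4.34 and 4.33 (1.88-fold, its second probe 0.83 on the log2 scale). In these 3 genes only the 4 h array stood apart from the control by more than the spot error, apart from *Psmd11* at 20 h (0.21 ± 0.20). *Psmd14*, the deubiquitinase of the lid, had 0.94 in the control, 1.70 at 4 h, 0.84 at 20 h and 0.73 at 32 h. Its ratio was thus 0.76 at 4 h and -0.21 at 32 h. The lowest lid gene at 4 h was *Psmd13* with 0.18 ± 0.20. The lid median of 0.81 and the alpha ring median of 0.66 come from ranges that overlap almost wholly (0.18 to 1.26 and 0.21 to 1.04), and the cap as a whole exceeded the core by only 0.07 in its median (0.62 and 0.55), so core and cap could not be set apart.

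**Figure D3:**
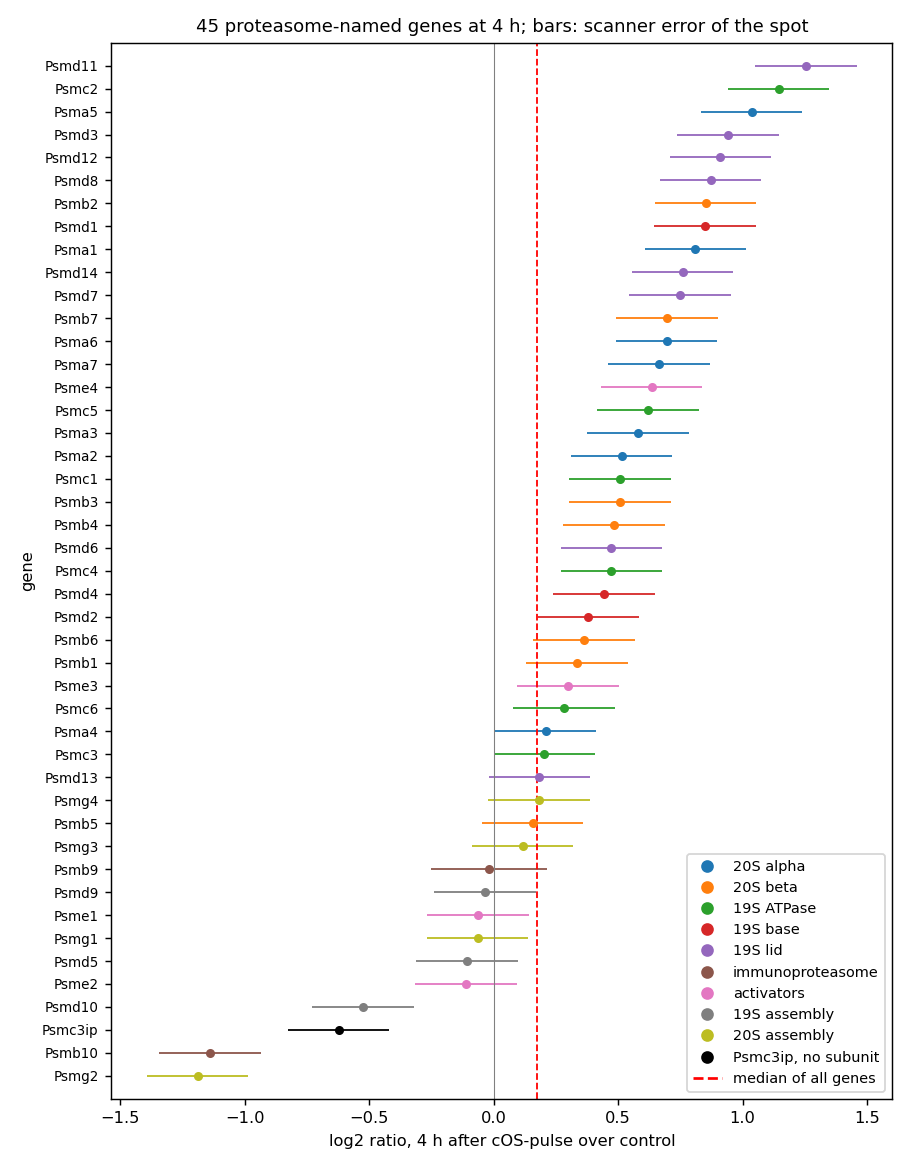
Log2 ratio at 4 h over control (horizontal axis) of the 45 measured genes in rank order (vertical axis), colored by role, with the spot error as bars and the median of all genes, 0.17, as a dashed line. *Psmd11* (1.26), *Psmc2* (1.14) and *Psma5* (1.04) lead; the lower end holds assembly chaperones, activators, both immunoproteasome genes and *Psmc3ip*, with *Psmg2* at -1.19.

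The assembly chaperones did not follow the subunits they assemble. At 4 h none of the 7 lay above the control by more than the spot error and 2 lay below it. *Psmg2*, one partner of the dimer that builds the alpha ring, had a signal of 1.77 in the control, 0.58 at 4 h, 1.76 at 20 h and 1.74 at 32 h. This was the lowest ratio of all members, -1.19 ± 0.20 at 4 h (2.28-fold lower), with 5.54% of measured genes lower, and the signal was back at the control level on both later arrays. Its partner in that dimer, *Psmg1*, had 2.70, 2.63, 2.49 and 2.46, so at 4 h it was within the spot error (-0.06 ± 0.20) while *Psmg2* was not. The second dimer, *Psmg3* and *Psmg4*, had 2.13, 2.25, 1.93 and 1.87, and 0.85, 1.03, 0.50 and 0.44. The ratios of both at 4 h (0.12 and 0.18) were within the spot error, and both were lowest on the later arrays.

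Among the chaperones of the cap base, *Psmd10*, also known as the oncoprotein gankyrin, had 1.15 in the control, 0.62 at 4 h, 1.03 at 20 h and 1.03 at 32 h. Its 2 probes agreed at 4 h, both with -0.52. *Psmd5* (1.15, 1.04, 1.08 and 1.13) and *Psmd9* (0.63, 0.59, 0.53 and 0.53) stayed within the spot error of the control on all arrays, although a dimmer second *Psmd9* probe gave -0.35 at 4 h. Relative to the median of all genes, the median of the chaperones at 4 h was -0.24 under each scaling by 1 constant per array. There 1 of the 7 exceeded the median of all genes, and such a scaling can change neither value. After quantile normalization the difference was -0.11 and 2 of the 7 exceeded that median.

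The activators were mixed. *Psme1* and *Psme2*, whose products form the PA28 ring induced by interferon, had 1.76 in the control, 1.70 at 4 h, 1.83 at 20 h and 1.87 at 32 h, and 4.49, 4.38, 4.35 and 4.45. By their brightest probes both were within the spot error of the control throughout. A second *Psme2* probe gave -0.30 at 20 h and -0.27 at 32 h, and the dimmest gave 2.15 at 32 h. *Psme1* was printed in 10 spots, whose SD was between 0.04 and 0.06 on each array. That is a spread within 1 array, while the 0.20 is the error of a ratio between arrays. *Psme3*, the nuclear PA28 activator, had 0.47, 0.77, 0.77 and 0.84 and was the only activator above the control by more than the spot error at all 3 times (0.30, 0.30 and 0.37 ± 0.20), though at 4 h it turned to -0.10 with the spike-in probes. *Psme4*, which encodes the large activator PA200, had 0.21 in the control, 0.85 at 4 h, 0.45 at 20 h and 0.23 at 32 h (0.63 ± 0.20 at 4 h, 1.55-fold). *Psmc3ip*, the name match that is no subunit, had 0.33, -0.29, 0.38 and 0.29, and was 1.54-fold lower at 4 h.

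At 20 h and 32 h the proteasome genes were close to the control in the scaled log2 signals defined above. The median over 45 measured genes was 0.00 at 20 h and 0.02 at 32 h, and 34 and 37 of them were within their spot error. With the spike-in probes the median was 0.07 at 4 h, 0.20 at 20 h and 0.17 at 32 h. In that scaling 42 genes lay above 0 at 20 h and 41 at 32 h. Leaving out 1 of the 8 spike-in probes gave medians of 0.076, 0.077 and 0.021. There 33 genes lay above 0 at 20 h and 26 at 32 h, so the later spike-in values rested largely on 1 probe. Without scaling the medians were 0.19, 0.33 and 0.20, so a return toward the control depended on the scaling. Relative to the median of all genes, the members stood at 0.30, 0.00 and 0.02 in each scaling by 1 constant per array. Such a scaling cannot change these differences. Quantile normalization could, and gave 0.15, 0.02 and 0.02. In the scaled log2 signals, 56.7% and 55.9% of all genes were within their spot error at 20 h and 32 h. No member was 1.5-fold higher or lower at either time in these signals, where 4.57% of all genes were higher and 7.79% lower at 20 h, and 6.01% and 7.13% at 32 h. Among the bright genes the shares were smaller, 2.25% and 3.37% at 20 h, and 2.56% and 3.53% at 32 h. Beyond the spot error at 20 h were the core and cap genes *Psma5*, *Psmc1*, *Psmc2*, *Psmd2* and *Psmd11* (0.21 to 0.25), and at 32 h *Psma1* (0.26), *Psmc1* (0.24) and *Psmd14* (-0.21). The highest of all members at both times were *Psmb9* and *Psme3*, and the lowest were *Psmg4* (-0.35 at 20 h and -0.41 at 32 h), *Psmg3* (-0.21 and -0.26) and *Psmg1* (-0.21 and -0.23). All 7 assembly chaperones were below the control at both times, with a median of -0.11 at each. That median turned to 0.09 and 0.04 with the spike-in probes, but with 1 of those probes left out it was -0.04 and -0.11. It turned to 0.22 and 0.06 without scaling. In the scaled log2 signals only *Psmg1*, *Psmg3* and *Psmg4* were below by more than the spot error. At 20 h the array had the brightest raw signals, and without scaling *Psmg1* and *Psmg3* turned to 0.12 there. The plot by role, drawn from the scaled log2 signals, shows the 4 h values apart and the 20 h and 32 h values gathered around 0.

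**Figure D4:**
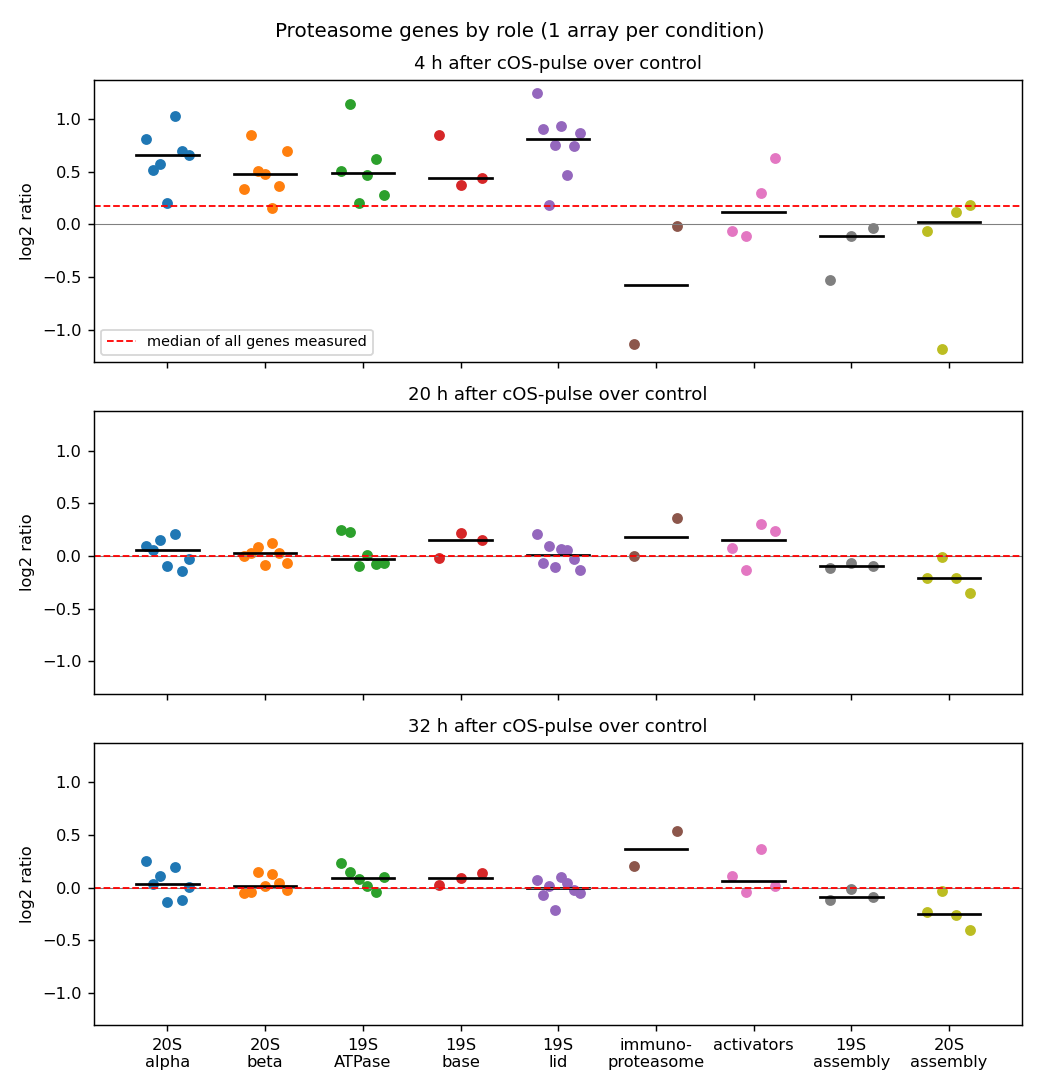
Log2 ratio over control (vertical axis) of the measured genes by role (horizontal axis) at 4 h, 20 h and 32 h after cOS-pulse; each point is a gene on 1 array, black bars are group medians and the dashed line is the median of all genes. Core and cap genes lie above 0 at 4 h in this scaling (medians 0.44 to 0.81 by group; 23 of 31 lie above 0 with the spike-in probes) and within about 0.25 of 0 later, while the 20S assembly genes lie below 0 at 20 h and 32 h.

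The 20 h and 32 h arrays were taken to detect circadian changes, and the proteasome genes differed little between them, as did most genes. The median of 20 h over 32 h was -0.00, and 44 of 45 genes were within the spot error, beside 83.1% of all genes. None reached 1.5-fold, where 1.93% of all genes were higher and 4.01% lower at 20 h, but only 0.132% and 0.371% of the bright genes, so the count of 0 is near the background. *Psme4* was the exception to the spot error, 0.22 ± 0.20 higher at 20 h than at 32 h. It was followed by *Psmd11* with 0.14 and *Psmd2* with 0.13. The lowest ratios were those of *Psmb10* (-0.20 ± 0.20), *Psmc3* (-0.18) and *Psmb9* (-0.18).

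Where a gene had several probes, they mostly told the same. Of 11 such genes measured with more than 1 probe at 4 h, the median gap between the probes of a gene was 0.09 and 9 had a gap under 0.2. No gene had probes on opposite sides of 0 by more than their errors at 4 h. The largest gap at 4 h, 0.51, was that of *Psme2*, from the dimmest of its 3 probes. At 32 h its gap was 2.42, with probes on opposite sides of 0 by more than their errors. Of the 11 genes, 10 had a gap under 0.2 at that time. RefSeq lists processed pseudogenes of *Psma5*, *Psmb5*, *Psmb6* and *Psmb7* and a near copy of *Psme2*, and hybridization of such copies cannot be told apart from that of the gene.

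Genes that work with the proteasome under other names were also examined at 4 h, when 63.7% of all genes lay above 0. Of 6 further subunits and assembly factors, 6 lay above the control by more than the spot error, with a median of 0.55, although *Psmf1* and *Uchl5* were below 0 with the spike-in probes. *Usp14*, a deubiquitinase bound to the cap, had 2.74 in the control, 4.01 at 4 h, 2.64 at 20 h and 2.66 at 32 h (2.41-fold at 4 h), and *Adrm1*, a ubiquitin receptor of the cap, had 3.41, 4.67, 3.36 and 3.51 (2.40-fold). *Pomp*, the chaperone of beta ring assembly, was at 0.58, in contrast to the chaperones named *Psmg*. From the list of ubiquitin genes and shuttle factors some genes were taken out after their values were seen, so its count is only a description. Of the 8 reported, 8 lay above the control with a median of 0.51, but only 5 did with the spike-in probes. The stress-inducible polyubiquitin gene *Ubb* (1.10) and the shuttle factors *Ubqln1* (1.46) and *Rad23b* (1.26), which carry tagged proteins to the cap, were more than 2-fold higher.

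Among 8 regulators of the proteasome, 7 were measured, with a median of 0.91, and 6 of them lay above 0 in each scaling. *Nfe2l1* had -0.90 in the control, 0.15 at 4 h, -0.93 at 20 h and -0.73 at 32 h (2.08-fold at 4 h). *Ddi2*, the protease that cleaves its product to the active form, was at 0.86 and *Nfe2l2* at 0.91. *Ngly1*, which removes the sugar chains of the same product, went the other way on a dim probe (-0.86 ± 0.38), and *Nfe2l3* was too dim to give a ratio. The stress-inducible proteasome-binding proteins *Zfand2a* (2.22, 4.65-fold) and *Zfand5* (1.40, 2.64-fold) were the highest of the list. Their ratios were 0.65 and 0.38 at 20 h and 0.58 and 0.45 at 32 h. In these scaled signals they were thus still above the control when the subunits were level with it.

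The 7 reported genes of interferon response and antigen processing, which are commonly induced with the immunoproteasome, did not move together. *Irf1*, a transcription factor of immunoproteasome genes, had 3.41 in the control, 2.40 at 4 h, 3.12 at 20 h and 3.30 at 32 h (2.01-fold lower at 4 h). *Nlrc5*, an activator of antigen presentation genes, was dim and higher at all 3 times (0.91, 0.93 and 0.90). *B2m* was at 0.56 and *Tap2* at -0.34 at 4 h, and *Tap1* was too dim on 1 of the arrays for a measured ratio. The median over the 6 measured genes was 0.24, and -0.16 with the spike-in probes. The plot of these companion genes shows the 4 h values to the right of the later ones in the first 3 lists, except for *Uchl5* and *Ngly1*, and on both sides in the last.

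**Figure D5:**
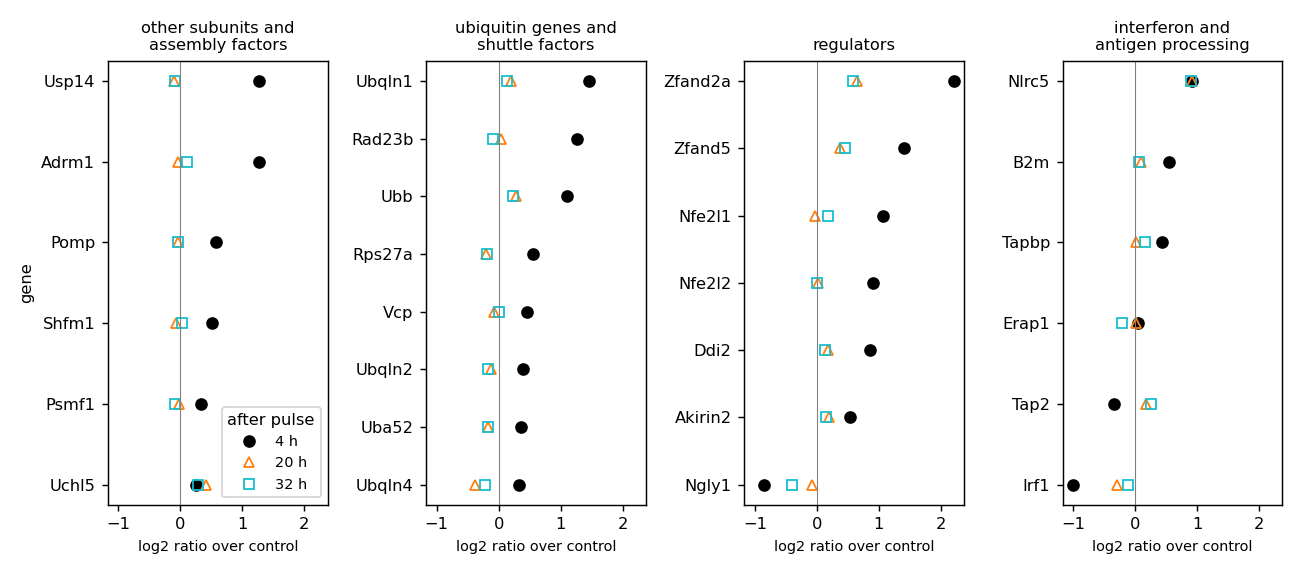
Log2 ratio over control (horizontal axis) of genes linked to the proteasome (vertical axis) in 4 lists at 4 h (filled circles), 20 h (triangles) and 32 h (squares), 1 array per time, for genes measured at all 3 times. *Zfand2a* is the farthest right with 2.22 at 4 h, and *Irf1* the farthest left with -1.01.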

How the data were processed

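The authors hybridized Cy3-labeled cRNA to Agilent Mouse GE 4x44K v2 arrays and deposited spot intensities made with Feature Extraction 10.7.3.1 (submitters' processing notes), which subtracts background. A table of these intensities scaled by a single factor per array was also deposited and served as an alternative. Spots without an outlier flag were averaged per probe as log2 intensity (39427 probes), and each array was centered on its 75th percentile. Flags removed 125 to 161 spots per array, and no spot was saturated. Detection of a probe required 50% or more of its spots to pass the well-above-background flag (52.7% to 59.1% of probes per array), and a ratio required detection on both arrays. Levels were not compared between probes. Spot errors were propagated from the scanner software, and 1 array per condition limits the precision. The members and lists were chosen with earlier results of these data known. Some genes of the companion lists are not reported here and were taken out after their values were seen, so the counts of those lists cover the remaining genes. Genes were named by a rule: catalytic subunits, activators, chaperones, the ends of each ranking, and any 2-fold change. Alternatives were 5 other scalings, normexp correction (offset 50, limma 3.58.1 in R 4.3.3), detection filters, keeping flagged spots, mean over probes, a 2-fold threshold and the deposited table. Added after seeing the data were spike-in scaling without 1 of 8 probes and the background of bright genes. Of the columns with values per sample, 0 were unmapped. Probe positions are those in the files (mm9), whose exon and UTR annotation was not used here. Promoters came from the RefSeq table. Steps were tested on simulated data in Python 3.11.15 (numpy 2.4.6, pandas 2.3.3).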

Additional observations from a re-analysis of the deposited data

Results flagged for a closer look

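*Psmd14*, the deubiquitinase of the lid, was 0.76 above the control at 4 h and at -0.21 at 32 h, both beyond the spot error of 0.20. The 32 h value came within that error with median scaling (-0.18), the spike-in probes (-0.056), quantile normalization (-0.20) and no scaling (-0.035). With 1 of the spike-in probes left out it stayed beyond the error. The difference between the times was not tested, since each is 1 array.

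The dimmest of the 3 probes of *Psme2* gave a log2 ratio of 2.15 at 32 h over control, while the other 2 probes of that gene gave -0.04 and -0.27. Its scaled log2 signal was -3.42 in the control, -3.05 at 4 h, -5.15 at 20 h, where it was not well above background, and -1.26 at 32 h.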

How the results depend on the processing

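No paired analysis was possible because each condition has 1 array. For the same reason no replicate could be left out, and a difference between cultures cannot be told from one between conditions. The median log2 ratio of all members at 4 h, 0.47, became 0.11 with median scaling, 0.14 after quantile normalization, 0.070 with the spike-in probes (0.076 without 1 of them) and 0.19 without scaling, and at 20 h 0.33 without scaling. The number of members at least 1.5-fold higher at 4 h, 16, became 3 with median scaling, 7 after quantile normalization, 3 with the spike-in probes (3 without 1 of them), 6 without scaling and 3 at 2-fold. At 20 h it was 2 without scaling. At 32 h it was 1 with the spike-in probes (0 without 1 of them), without scaling, without the detection filter and with the mean over probes. The immunoproteasome minus core median at 4 h, -1.13, was -0.89 after quantile normalization and -0.57 without the detection filter, which adds *Psmb8*. Directions turned at 4 h for *Psma4* with median scaling (-0.15), quantile normalization (-0.013), spike-in probes (-0.19, and -0.19 without 1) and no scaling (-0.072). They turned for *Psmb1* (-0.027, -0.069 and -0.063), *Psmc6* (-0.080, -0.12 and -0.12) and *Psme3* (-0.062, -0.10 and -0.098) with median scaling, the spike-in probes and the spike-in probes without 1. *Psmb6* turned with quantile normalization (-0.012) and both spike-in scalings (-0.040 and -0.034), and *Psmd2* with both spike-in scalings (-0.023 and -0.017). *Psmg1* (0.12) and *Psmg3* (0.12) turned at 20 h without scaling. In each case 1 constant or mapping per array was changed, and which scaling is right was not tested. Of the 2160 single-gene values recomputed, 1904 moved by less than the spot error and 235 by more, and of these 235, 43 also changed sign from a value that was within its spot error, among them *Psmb5*, *Psmc3* and *Psmd13* at 4 h with the spike-in probes.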
